A study of Mus musculus with 10 samples.

Results

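Mouse embryonic stem cells that had passed more than 13 times in 2i/LIF and were then returned to serum/LIF for 6 passages were set against cells labelled with serum/LIF alone. These 4 libraries, 2 per group, were chosen by their culture medium label from the 10 of the series, so that the medium was shared and the culture history differed. All cells were described as embryonic stem cells from the blastocyst that hold a reporter of Wnt/β-catenin signalling, and they were grown on gelatin and split about every 48 h. Serum/LIF medium holds serum and the cytokine LIF. In 2i/LIF medium, LIF was joined by a GSK3 inhibitor at 3 µM and the ERK pathway inhibitor PD at 1 µM. The other 6 libraries, 2 per group, came from cells after 5 to 6 passages in 2i/LIF (first 2i), after more than 13 passages in it (long 2i), and after a second stay of 4 to 5 passages in it (second 2i). Second 2i cells had earlier gone through 2i/LIF, labelled with 13 passages rather than more than 13, and 6 passages in serum/LIF, and the labels do not tie them to the return libraries used here. The labels name no cell line or clone, give no passage number for the original serum cells and do not say whether the 2 libraries of a group came from separate cultures. P-values therefore measure only the spread between these libraries, and time in culture cannot be told apart from the history in 2i.

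As background, 2i/LIF holds embryonic stem cells in a uniform naive state by blocking ERK signalling and by raising Wnt/β-catenin signalling through GSK3 inhibition, and DNA methylation is known to fall in it. Serum/LIF supports a mixed population in which ERK signalling is active, BMP-like factors of the serum induce Id genes, and some cells drift towards primitive endoderm or towards a formative epiblast state. A small, changing fraction of cells in such cultures enters a 2-cell-like state marked by Zscan4 genes.

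Gene counts totalled 21162844 and 19422934 in the original serum libraries (replicates 1 and 2) and 27766338 and 21589691 in the serum return libraries. Values below are CPM, counts scaled to the library total and adjusted by TMM factors. Of 24015 genes, 14220 had enough counts to be tested. Both groups held high levels of 8 embryonic stem cell markers, whose summed level was 6175 and 6251 CPM in original serum and 6550.0 and 6639 CPM in serum return. The libraries of the return group differed in 1 abundant transcript, the ribosomal RNA precursor Rn45s, at 4708 and 5445 CPM in original serum and 2496 and 15476 CPM in serum return. It did not pass (edgeR adjusted p = 0.496), and 4406 of the 4407 calls below remained without it.

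Most genes differed little between the groups. At an adjusted p under 0.05 in edgeR's quasi-likelihood test, 4407 of 14220 genes (31%) changed, 2347 of them higher in serum return (16.5%) and 2060 lower (14.5%). The median absolute log2 fold change over all genes tested was 0.19 and the median was 0.015. A change of at least 2-fold was called for 459 genes (3.23%), of which 323 were higher (2.27%) and 136 lower (0.956%). Of the 323, only 71 reached a mean of 5 CPM in serum return, and 92 stayed under 1 CPM. In the same fit, serum return against long 2i, in which the medium differed, changed 10153 genes (71.4%), 3808 of them at least 2-fold (26.8%). On the first principal component of the 10 libraries, which held 65.8% of the variance, original serum lay at -81.6 and -84.2 and serum return at -77.3 and -79.6. The libraries of the groups did not overlap in 64.6% of all genes tested (33.8% higher and 30.7% lower in serum return). The count of 4407 fell to 2822 without original serum replicate 2 and to 2437 without serum return replicate 1, with the remaining library of that group assumed to vary like the other groups.

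**Figure D1:**
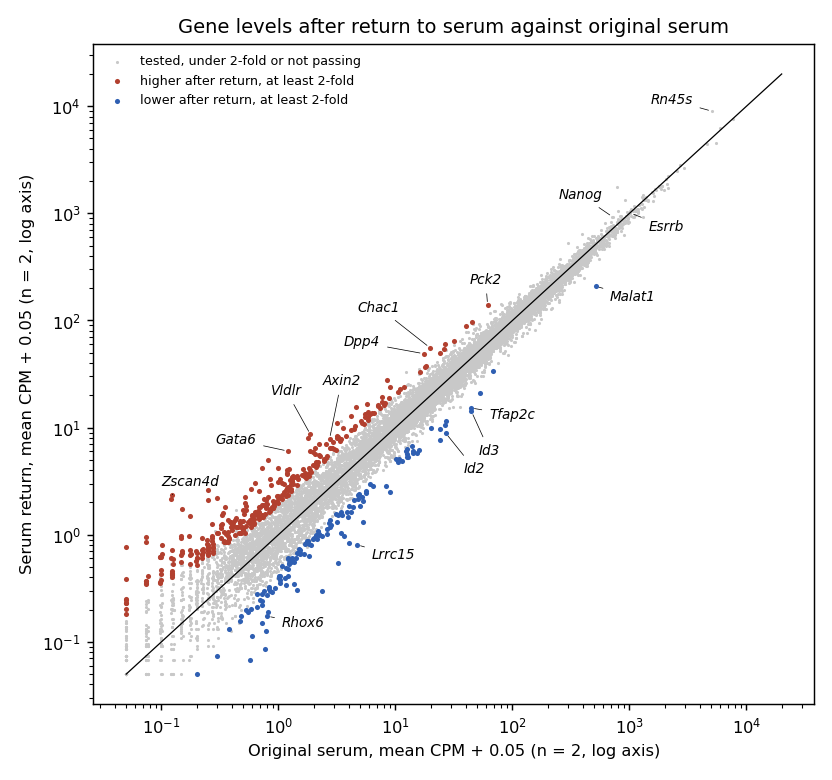
Mean level of each gene tested in original serum (horizontal) and serum return (vertical), in CPM + 0.05 on log axes, n = 2 libraries per group. Most of the 14220 genes lie along the line of equal levels, while 323 genes (red) and 136 genes (blue) passed with at least a 2-fold difference.

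Of the 32 gene lists described, that of serine synthesis and the amino acid stress response had the largest share of members higher in serum return. As background, shortage of amino acids raises the transcription factor ATF4, which binds composite C/EBP-ATF elements and induces amino acid transporters, amino acid synthesis enzymes and tRNA synthetases. Of 31 such genes tested, 27 rose in serum return, 3 fell and 1 did not pass, against 16.5% higher and 14.5% lower among all genes tested. Their median log2 fold change was 0.59, against 0.015 over all genes. The shares of 16.5% and 14.5% are the reference for the member counts of every list below.

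The promoter windows of 4 of these genes are shown because each holds the letters TGATGNAA, the core of that composite element, on either strand. They are RefSeq sequences of build GRCm38.p6, a later build than the mm9 of the count files. Each is the 250 bases before a start of the gene, written on the gene's strand with the match in capitals. Vldlr has 2 such windows, and only the 1 shown holds the letters. The windows are those of Chac1 (chr2:119350992-119351241, plus strand), Asns (chr6:7693210-7693459, minus strand), Nupr1 (chr7:126625471-126625720, minus strand) and Vldlr (chr19:27216770-27217019, plus strand).
Chac1: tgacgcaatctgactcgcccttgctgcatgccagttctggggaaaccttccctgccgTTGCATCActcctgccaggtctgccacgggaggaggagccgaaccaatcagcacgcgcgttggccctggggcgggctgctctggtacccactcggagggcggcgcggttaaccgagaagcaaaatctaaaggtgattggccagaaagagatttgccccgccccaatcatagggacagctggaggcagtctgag
Asns: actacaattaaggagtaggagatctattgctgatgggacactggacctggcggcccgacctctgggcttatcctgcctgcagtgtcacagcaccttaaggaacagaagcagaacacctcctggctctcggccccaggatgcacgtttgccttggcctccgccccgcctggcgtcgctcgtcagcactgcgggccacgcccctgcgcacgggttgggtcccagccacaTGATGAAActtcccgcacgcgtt
Nupr1: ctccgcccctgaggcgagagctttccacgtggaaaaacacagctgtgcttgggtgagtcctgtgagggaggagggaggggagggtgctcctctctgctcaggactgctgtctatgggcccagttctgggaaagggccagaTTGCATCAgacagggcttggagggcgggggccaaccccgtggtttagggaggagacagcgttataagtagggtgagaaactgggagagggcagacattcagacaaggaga
Vldlr: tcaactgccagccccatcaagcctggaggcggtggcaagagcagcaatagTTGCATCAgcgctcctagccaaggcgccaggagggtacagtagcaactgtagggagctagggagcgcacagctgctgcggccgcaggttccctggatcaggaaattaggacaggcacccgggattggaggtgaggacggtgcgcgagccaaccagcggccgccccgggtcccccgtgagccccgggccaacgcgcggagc
The match began 193 bases before the start of Chac1, 23 before that of Asns, 110 before that of Nupr1 and 200 before that of Vldlr. Of 26 listed genes with a promoter entry, 7 held the letters in any of their windows (26.9%), namely these 4, Atf3, Slc7a11 and Pck2. Among all tested genes with an entry the share was 249 of 10556 (2.36%), and among all 250-base windows it was 1134 of 32851 (3.45%). A match of letters is a description and does not show that a factor binds there.

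Chac1, which degrades glutathione, stood at 19.6 and 19.6 CPM in original serum and 55.5 and 56.0 CPM in serum return. Both return libraries were well above both original ones, and the level was 2.84-fold higher (log2 fold change 1.51, standard error 0.0843, edgeR adjusted p = 3.74e-10). Vldlr, a receptor of triglyceride-rich lipoproteins, went from 1.67 and 1.98 CPM to 8.64 and 8.51 CPM. It was 4.70-fold higher with no overlap between the groups (edgeR adjusted p = 2.70e-08). Asns, the asparagine synthetase, stood at 402 and 378 CPM against 651 and 642 CPM. It rose 1.66-fold (edgeR adjusted p = 8.51e-10), one of the largest gains in CPM in the comparison. Atf3, a stress-induced transcription factor, was at 2.58 and 1.88 CPM and 5.20 and 5.68 CPM (2.42-fold higher). The mitochondrial folate enzyme Aldh1l2 was at 2.63 and 2.81 CPM and 7.25 and 5.58 CPM (2.38-fold higher). In all of these genes the lowest return library was above the highest original one. Slc7a11, the cystine transporter, also passed, but it had 3 reads in original serum against 21 and 8 in the return libraries, so no fold is given. Its adjusted p was 0.0843 without original serum replicate 2 and 0.130 without serum return replicate 1.

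Further members, chosen after their values were seen, came from each arm of the response. Nupr1, a stress-induced chromatin protein, went from 28.4 and 24.2 CPM to 59.5 and 60.1 CPM, and Pck2, the mitochondrial phosphoenolpyruvate carboxykinase, from 57.0 and 65.6 CPM to 133 and 145 CPM. Cth, which makes cysteine from cystathionine, went from 40.3 and 40.6 CPM to 89.8 and 89.7 CPM. These 3 genes were 2.27-fold, 2.27-fold and 2.22-fold higher in serum return. The stress regulators Ddit3 (CHOP) and Trib3 were 2.09-fold and 2.00-fold higher. Of the serine pathway, Psat1, Psph and Shmt2 rose by 0.39, 0.48 and 0.46 on the log2 scale, whereas Phgdh, its first enzyme, stood at 94.3 and 99.6 CPM and 102 and 116 CPM and did not pass (edgeR adjusted p = 0.0627).

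The transporter Slc7a5, which carries large neutral amino acids, rose from 691 and 731 CPM to 915 and 941 CPM (1.31-fold). Aars, the alanyl-tRNA synthetase and one of the genes with the largest CPM gain, rose from 783 and 802 CPM to 1033 and 1056 CPM (1.32-fold). Atf4 mRNA itself was lower, at 813 and 745 CPM in original serum and 686 and 646 CPM in serum return. That difference was -0.23 on the log2 scale (edgeR adjusted p = 0.00217) and missed the threshold in 1 leave-one-out fit, with an adjusted p of 0.0509 without original serum replicate 1. The other 2 members that fell were Shmt1 (log2 fold change -0.15) and the transporter Slc38a2 (log2 fold change -0.17). Adjusted p for Shmt1 was 0.131 without original serum replicate 1, 0.0521 without original serum replicate 2 and 0.213 without serum return replicate 1. For Slc38a2 it was 0.129 without original serum replicate 1, 0.0504 without original serum replicate 2, 0.0567 without serum return replicate 1 and 0.151 without serum return replicate 2.

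**Figure D2:**
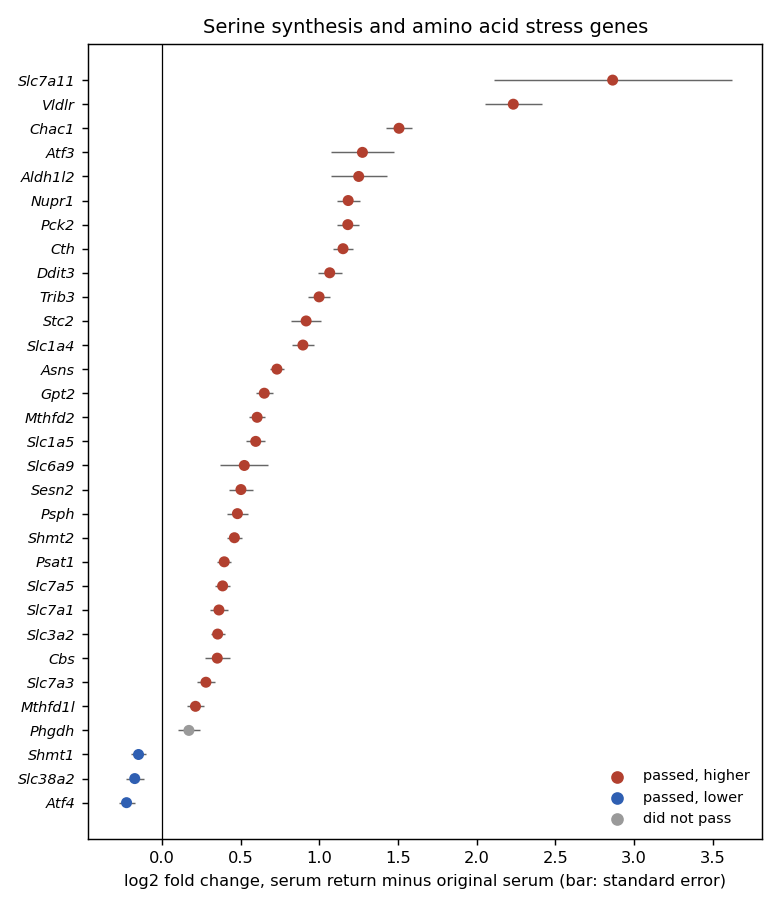
Fitted log2 fold change of serum return over original serum for the 31 tested genes of serine synthesis and the amino acid stress response, with its standard error. Of these genes, 27 lie to the right of 0 and passed, 3 passed to the left, and Phgdh did not pass. Slc7a11 rests on 3 reads in original serum.

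Most germline genes rose. Of 38 tested, 26 were higher in serum return (68.4%), 3 lower (7.89%) and 9 did not pass, with a median log2 fold change of 0.67. As background, many germline genes have CpG-rich promoters that are silenced by DNA methylation in other cells. Hormad1, a meiotic chromosome axis protein, went from 1.87 and 2.14 CPM to 6.38 and 6.28 CPM (3.17-fold higher, edgeR adjusted p = 7.13e-07). Taf7l, a testis-enriched relative of a TFIID subunit, went from 1.53 and 2.34 CPM to 6.31 and 5.40 CPM (3.05-fold higher). Dazl, a germ cell RNA-binding protein, went from 7.46 and 6.67 CPM to 16.7 and 15.4 CPM (2.27-fold higher, edgeR adjusted p = 8.06e-07). Brdt, a testis bromodomain protein, went from 4.11 and 3.33 CPM to 8.54 and 7.96 CPM (2.21-fold higher). In these genes both return libraries lay above both original ones.

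Further members are given here. Of 3 chosen after their values were seen, Stra8, the meiotic entry gene, went from 6.74 and 7.03 CPM to 13.0 and 12.3 CPM, and Sycp1, of the synaptonemal complex, from 7.99 and 8.44 CPM to 14.0 and 14.5 CPM. Piwil2, a piRNA-binding protein, went from 21.4 and 19.9 CPM to 35.2 and 39.4 CPM. These were 1.84-fold, 1.73-fold and 1.8036-fold higher. Dmrt1, a regulator of male germ cells, was at 37.9 and 36.9 CPM and 35.5 and 36.5 CPM and did not pass (edgeR adjusted p = 0.598). The homeobox gene Rhox6, expressed in placenta and germ cells, was at 0.670 and 0.834 CPM in original serum and 0.108 and 0.140 CPM in serum return (5.91-fold lower). Its neighbour Rhox9 was at 0.526 and 0.573 CPM and 0.0359 and 0.0930 CPM, with 3 reads in the return group. The third member that fell was Tex15, required for meiotic recombination, with a log2 fold change of -0.44. The 26 higher members became 17 without original serum replicate 2, and reads of Rhox and other multicopy genes are only partly counted.

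The 2-cell-like genes were near 0 in original serum. Of 25 listed, 21 were in the files and 9 had enough counts to be tested. Of the 9, 7 were higher in serum return, 1 was lower and 1, Pramel3, had no reads in either group. The median log2 fold change was 3.66, or 3.46 with the gene at 0 reads in original serum set to its bound. Genes near 0 in original serum could pass the count filter only through groups where they were higher. The share of members that rose and the median are therefore set in part by that filter. Reads over 4 Zscan4 genes summed to 8 and 7 in original serum and to 253 and 117 in serum return, which is 0.383 and 0.365 CPM against 9.08 and 5.44 CPM. Zscan4a, which protects telomeres along with its relatives, stood at 0.191 and 0.208 CPM and 3.16 and 1.95 CPM (12.6-fold higher, edgeR adjusted p = 7.29e-06). Zscan4c stood at 0.0957 and 0.104 CPM and 2.19 and 1.16 CPM. Zscan4d had 3 reads in original serum and stood at 0.0957 and 0.0521 CPM there and 2.76 and 1.86 CPM in serum return. Zscan4e had no read in original serum and 0.968 and 0.465 CPM in serum return, which is at least 9.58-fold higher when the group is set to 3 reads. All return libraries were above all original ones in each of these genes, and replicate 1 of serum return was the higher of the pair. Reads that fit several Zscan4 copies were not counted, so these levels are lower limits of the family. In bulk libraries a larger fraction of 2-cell-like cells and more RNA per such cell cannot be told apart.

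**Figure D3:**
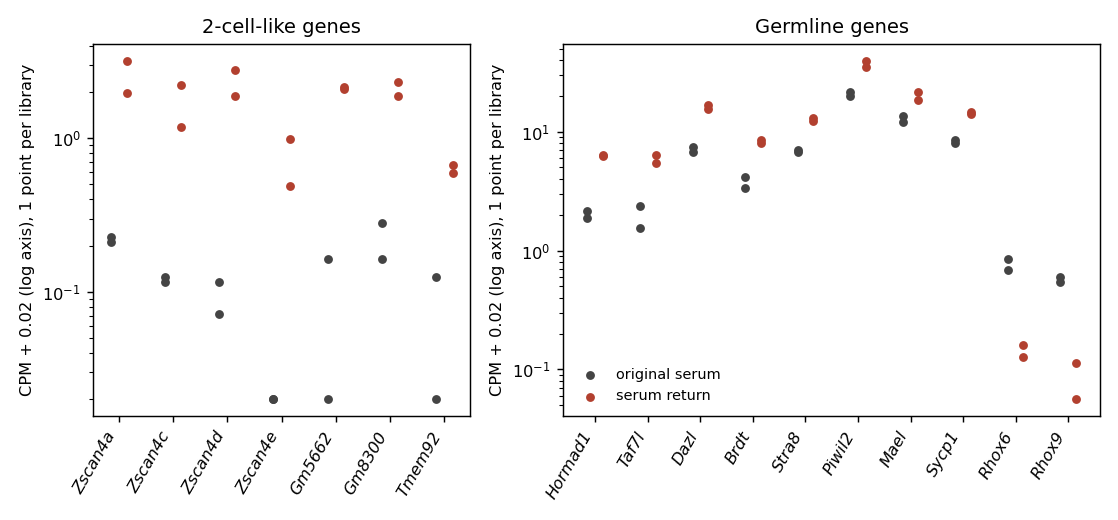
Level in each library (1 point per library, CPM + 0.02 on a log axis) of 7 genes of the 2-cell-like state, left, and 10 germline genes, right, in original serum (dark) and serum return (red). Zscan4a rises from 0.191 and 0.208 CPM to 3.16 and 1.95 CPM, while Rhox6 falls from 0.670 and 0.834 CPM to 0.108 and 0.140 CPM.

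Pluripotency genes showed small changes in both directions. Of 14 core factors, 3 rose (21.4%), 3 fell (21.4%) and 8 did not pass, with a median of 0.0050 on the log2 scale. Pou5f1, which encodes OCT4, was at 1199.9 and 1227 CPM and 1163 and 1219 CPM and did not pass (edgeR adjusted p = 0.704). Its groups overlapped. Nanog was at 729.6 and 709.9 CPM and 949 and 902 CPM, 1.29-fold higher with both return libraries above both original ones (edgeR adjusted p = 7.69e-06). Tdgf1, the Nodal co-receptor, rose from 959 and 883 CPM to 1369.7 and 1268 CPM (1.43-fold). Dppa2, a chromatin regulator of early embryonic genes, rose from 80.8 and 71.5 CPM to 101 and 91.7 CPM (1.27-fold).

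Sox2 fell from 816 and 814 CPM to 728 and 743 CPM (log2 fold change -0.15), and Trim28, a co-repressor of retroelements, from 2055 and 2222 CPM to 1635 and 1849 CPM (log2 fold change -0.30). For Sox2 the adjusted p was 0.0711 without original serum replicate 1, 0.0741 without original serum replicate 2 and 0.122 without serum return replicate 1, and for Trim28 it was 0.0550 without serum return replicate 1. Of 19 naive genes, 4 rose, 5 fell and 10 did not pass (median -0.011). Nr0b1, a nuclear receptor of the naive network, fell from 172 and 182 CPM to 100.4 and 107 CPM (1.70-fold, edgeR adjusted p = 2.39e-08). Tbx3 and Klf4 fell, with log2 fold changes of -0.29 and -0.21, and Sox15 went from 17.7 and 18.3 CPM to 11.4 and 11.4 CPM. Among the 4 that rose were Dazl, given above with the germline genes (2.27-fold), and Pecam1. Pecam1 went from 49.9 and 48.4 CPM to 72.2 and 68.5 CPM (1.43-fold higher, edgeR adjusted p = 9.25e-06). Esrrb, at 984 and 1048 CPM and 987 and 1031 CPM, and Zfp42 (REX1), at 924 and 938 CPM and 906 and 970.2 CPM, did not pass, and their groups overlapped. Prdm14, at 48.1 and 49.8 CPM and 51.5 and 55.1 CPM, did not pass either.

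Of 16 formative and primed genes, 3 rose, 3 fell and 10 did not pass (median -0.031). Otx2, the epiblast transcription factor, was at 20.040 and 20.009 CPM in original serum and 13.0 and 12.6 CPM in serum return, 1.57-fold lower with both pairs nearly equal within their group (edgeR adjusted p = 1.70e-05). The de novo DNA methyltransferase Dnmt3b, which is on this list and on that of the methylation genes, fell from 148 and 145 CPM to 102 and 101 CPM (1.45-fold, edgeR adjusted p = 7.73e-07).

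The Id genes, which respond to BMP, were lower. Of 15 targets of TGF-β, Nodal and BMP signalling, 7 fell, 2 rose and 6 did not pass (median -0.23). Id proteins are helix-loop-helix factors that block differentiation factors, and their genes are direct BMP targets. Id3 went from 41.2 and 47.9 CPM to 12.2 and 16.1 CPM (3.18-fold lower, log2 fold change -1.67, standard error 0.118, edgeR adjusted p = 3.34e-08). Id2 went from 27.9 and 25.8 CPM to 8.47 and 9.21 CPM (3.05-fold lower). Id4 went from 10.7 and 11.9 CPM to 4.99 and 4.65 CPM (2.33-fold lower). Id1 went from 183 and 189 CPM to 130.2 and 136 CPM (1.40-fold lower). For each Id gene both return libraries were below both original ones. The Nodal antagonists Lefty1 and Lefty2 fell to a smaller extent, from 147 and 164 CPM to 111 and 129 CPM and from 402 and 394 CPM to 341 and 339 CPM. Of the 2 that rose, Tdgf1 is given above and the other is Nodal, with a log2 fold change of 0.29. Smad7, the feedback inhibitor, was at 160.4 and 186 CPM and 147 and 186 CPM and did not pass.

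Of 21 Wnt/β-catenin targets, 2 rose, 4 fell and 15 did not pass (median -0.058). Axin2, the negative feedback regulator that β-catenin induces, was at 2.34 and 3.02 CPM in original serum and 7.86 and 7.68 CPM in serum return (2.91-fold higher, edgeR adjusted p = 6.72e-08). Cdx1, a homeobox gene downstream of Wnt, was at 1.77 and 2.24 CPM and 4.99 and 6.37 CPM (2.81-fold higher, edgeR adjusted p = 1.54e-04). In long 2i, Axin2 stood at 73.0 and 75.2 CPM and Cdx1 at 10.1 and 13.8 CPM, above both serum groups. Notum, a secreted Wnt inhibitor, moved the other way, from 32.7 and 34.0 CPM to 19.3 and 20.6 CPM (1.68-fold lower). The receptor gene Fzd7 fell from 162 and 169 CPM to 118 and 130.1 CPM (1.33-fold).

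Of 22 ERK pathway targets, 2 rose, 7 fell and 13 did not pass (median -0.0036). The phosphatase gene Dusp6, a direct readout of ERK signalling, was at 192 and 190.4 CPM and 181 and 189 CPM and did not pass (edgeR adjusted p = 0.586). Etv5, another readout, was at 357 and 355 CPM and 384 and 380.0 CPM and did not pass. Dusp4 fell from 9.71 and 10.3 CPM to 6.24 and 6.84 CPM (1.53-fold) and Dusp5 from 9.95 and 10.1 CPM to 5.70 and 7.21 CPM (1.56-fold). For Dusp4 the adjusted p was 0.0710 without serum return replicate 1, and for Dusp5 it was 0.114 without serum return replicate 1.

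Of 16 LIF and Stat3 targets, 2 rose, 2 fell and 12 did not pass (median 0.075). The 2 feedback inhibitors of cytokine signalling went in opposite directions. Socs3, the main inhibitor induced by LIF, rose from 131 and 149 CPM to 194 and 222 CPM (1.48-fold, edgeR adjusted p = 4.15e-04), and Socs2 fell from 122 and 117 CPM to 73.8 and 70.9 CPM (1.66-fold, edgeR adjusted p = 1.15e-08). Stat3 itself was at 164 and 168 CPM and 169 and 173 CPM and did not pass.

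Several primitive endoderm genes rose. Of 24 tested, 11 rose (45.8%), 3 fell (12.5%) and 10 did not pass (median 0.30). Gata6, a transcription factor that sets up this lineage, went from 1.05 and 1.25 CPM to 5.88 and 6.09 CPM. That was 5.19-fold higher, the largest fold among genes that met the level rule for naming (log2 fold change 2.38, standard error 0.246, edgeR adjusted p = 6.54e-07). Pdgfra, a receptor gene of early primitive endoderm, went from 0.526 and 0.625 CPM to 3.44 and 2.51 CPM (5.20-fold higher, edgeR adjusted p = 2.66e-05). The basement membrane genes Col4a1, Col4a2 and Sparc were 1.32-fold, 1.35-fold and 1.26-fold higher. The laminin genes of the list, also of the basement membrane, did not rise. Lama1 fell from 115 and 131 CPM to 104 and 109 CPM (log2 fold change -0.21, edgeR adjusted p = 0.0202), and the others did not pass. Sox7, a later factor of the lineage, was at 34.0 and 36.7 CPM and 36.9 and 36.1 CPM and did not pass. The 11 higher members became 7 without original serum replicate 1, without original serum replicate 2 or without serum return replicate 1. The defining marker Afp had no reads in either group, and a smaller set of 10 defining markers summed to 39.2 and 42.3 CPM in original serum and 50.9 and 50.1 CPM in serum return. All 28 genes of the list, several of which other cells also express, summed to 2357 and 2498 CPM and to 2254 and 2319 CPM, so the sum over the list was not higher.

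The other lineage lists were mixed. Of 17 neuroectoderm genes, 5 rose, 1 fell and 11 did not pass (median 0.30). Sox1, an early neural factor, went from 12.7 and 13.0 CPM to 22.6 and 28.0 CPM (1.96-fold higher, edgeR adjusted p = 2.24e-06), and Stmn2, a neuronal microtubule protein, from 7.22 and 5.68 CPM to 12.7 and 14.6 CPM (2.09-fold higher). The member that fell was Nes, from 11.7 and 13.8 CPM to 8.47 and 9.86 CPM (1.39-fold, edgeR adjusted p = 0.0060). Of 15 trophectoderm genes, 2 rose, 4 fell and 9 did not pass (median 0.050). Tfap2c, a trophoblast and germ cell transcription factor, fell from 42.0 and 46.1 CPM to 13.7 and 16.7 CPM (2.92-fold, edgeR adjusted p = 3.74e-10), with both return libraries far below both original ones. Of 12 primitive streak and mesoderm genes, none rose, 1 fell and 11 did not pass (median 0.017). The one that fell, Bmp4, had a log2 fold change of -0.16, and its adjusted p was 0.210 without original serum replicate 2, 0.140 without serum return replicate 1 and 0.0928 without serum return replicate 2. Of 17 Hox genes, 2 rose, none fell and 15 did not pass, and 7 had no more than 3 reads in each group. Hoxc13 was at 0.0957 and 0.104 CPM and 0.646 and 0.651 CPM, and Hoxd8, the other that passed, had no read in original serum and 6 and 2 in serum return. The adjusted p of Hoxd8 was 0.117 without original serum replicate 1, 0.115 without original serum replicate 2 and 0.197 without serum return replicate 1.

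Markers of fibroblasts and of endothelium and blood, which the cultures could hold, were examined next. A set of 11 defining fibroblast and feeder markers summed to 26.3 and 22.7 CPM in original serum and to 43.0 and 38.3 CPM in serum return, with Twist2 and Prrx1 at 0 reads in both groups. The 17 genes of the fibroblast list summed to 31.6 and 25.7 CPM and to 48.5 and 40.2 CPM. Of the 8 tested, 2 rose and 6 did not pass (median 0.69). Thy1 went from 14.8 and 12.6 CPM to 23.1 and 21.4 CPM and Pdgfrb from 8.08 and 8.18 CPM to 12.9 and 13.3 CPM. The collagen gene Col1a1, a defining fibroblast gene, was at 1.82 and 1.67 CPM and 2.40 and 2.47 CPM and did not pass. Mgp, an extracellular matrix protein gene, did not pass either and split by replicate number. It had 49 and 74 reads in replicate 1 of original serum and serum return, 27 to 66 in replicate 1 of the 2i groups, and 0 in replicate 2 of all 5 groups. Whether the higher fibroblast marker sum has a part in any result was not tested.

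Of 18 endothelial and blood genes tested, 3 rose, 2 fell and 13 did not pass (median 0.00059). The 22 genes of this list summed to 226.8 and 243 CPM in original serum and to 241 and 239 CPM in serum return. Several stood well above 0 in both groups. Robo4, a guidance receptor gene of endothelium, was at 51.6 and 58.6 CPM and 43.9 and 45.9 CPM and fell (edgeR adjusted p = 0.0156). Its adjusted p was 0.198 without original serum replicate 2 and 0.130 without serum return replicate 1, and 0.06 with DESeq2. Nos3, the endothelial nitric oxide synthase gene, was at 40.3 and 47.8 CPM and 40.2 and 41.1 CPM, and Egfl7, a secreted endothelial factor gene, at 31.6 and 31.2 CPM and 33.5 and 34.5 CPM. Neither passed. A separate set of 10 defining markers, which leaves out these 3 genes, summed to 15.2 and 17.2 CPM in original serum and 16.4 and 14.3 CPM in serum return, with both globin genes at 0 reads.

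**Figure D4:**
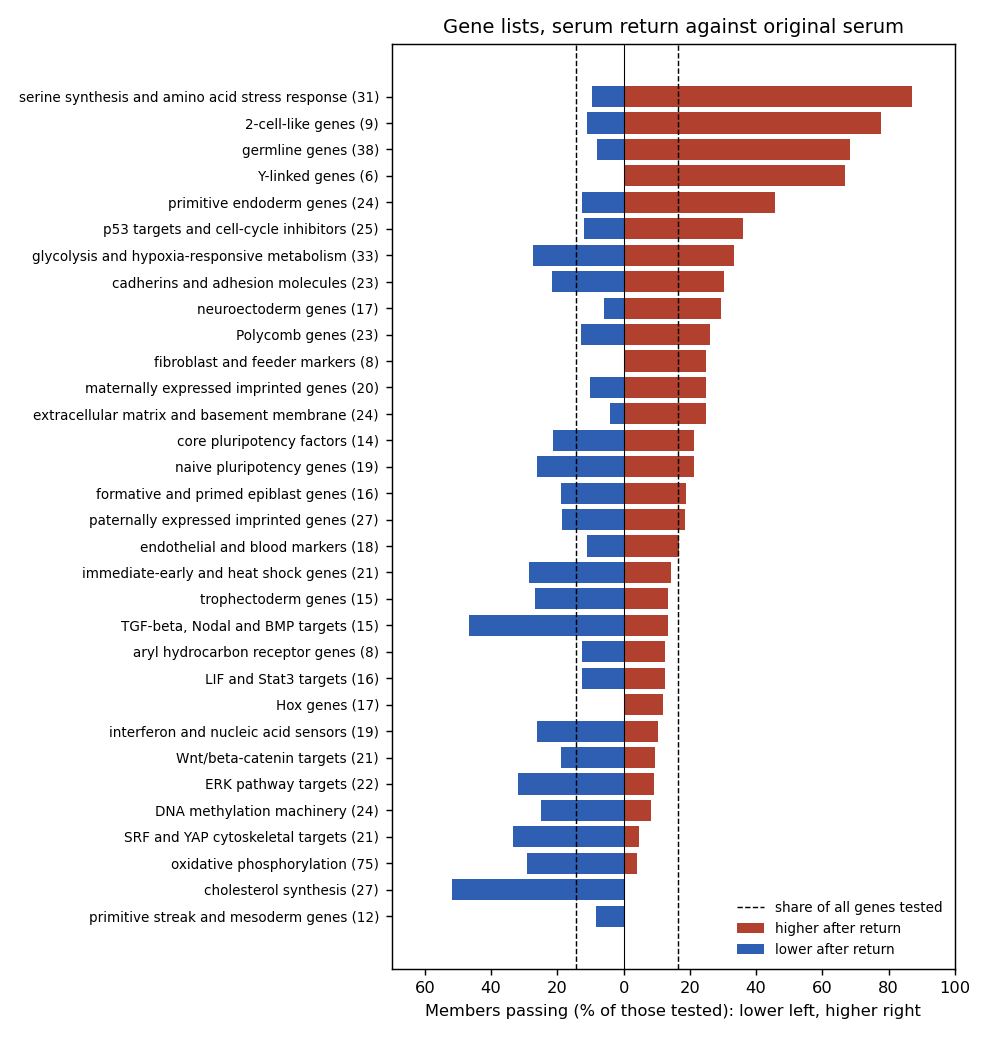
For each of the 32 gene lists, the share of tested members (number in brackets) that passed higher (red, to the right) or lower (blue, to the left) in serum return, in percent. The dashed lines mark the share of all genes tested, 16.5% higher and 14.5% lower. The amino acid list has 27 of 31 members on the right and the cholesterol list has 14 of 27 on the left. Lists share some members.

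Among 24 genes of the DNA methylation machinery, 2 rose, 6 fell and 16 did not pass (median 0.047). The maintenance enzyme Dnmt1 stood at 428 and 449.8 CPM and 465 and 452 CPM, and the cofactor Dnmt3l at 371 and 369 CPM and 378 and 406 CPM. Dnmt3a stood at 49.7 and 51.9 CPM and 50.3 and 54.1 CPM. These 3 genes did not pass. The histone H3K9 methyltransferase gene Ehmt2 (G9a) fell with Dnmt3b, from 318 and 354 CPM to 222 and 234 CPM (1.47-fold, edgeR adjusted p = 1.12e-04). Of 23 Polycomb genes, 6 rose (26.1%), 3 fell (13%) and 14 did not pass (median 0.052), against 16.5% higher and 14.5% lower among all genes tested. Bmi1, a PRC1 subunit, was at 4.26 and 3.96 CPM in original serum and 9.22 and 9.68 CPM in serum return (2.29-fold higher, edgeR adjusted p = 5.03e-07). Ezh2, the H3K27 methyltransferase, rose from 269 and 259 CPM to 334 and 319 CPM (1.24-fold). The PRC1 recruiter gene Kdm2b fell from 111 and 119 CPM to 86.3 and 91.5 CPM (1.29-fold).

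Imprinted genes, which are expressed from 1 parental copy under control of allele-specific DNA methylation, showed no common direction. Of 20 maternally expressed genes, 5 rose, 2 fell and 13 did not pass (median 0.12). Grb10, a growth inhibitor, went from 46.9 and 48.2 CPM to 79.8 and 83.3 CPM (1.71-fold higher, edgeR adjusted p = 2.46e-08). H19, the non-coding growth regulator, went from 5.17 and 4.22 CPM to 2.48 and 2.14 CPM (2.02-fold lower), with an adjusted p of 0.0639 without original serum replicate 1. Meg3, the Dlk1-Dio3 non-coding RNA, was at 128 and 140.3 CPM and 139 and 126 CPM and did not pass (edgeR adjusted p = 0.840).

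Of 27 paternally expressed genes, 5 rose, 5 fell and 17 did not pass (median -0.12). Kcnq1ot1, an antisense RNA that silences its neighbours, was at 7.99 and 10.005 CPM and 2.51 and 2.42 CPM (3.63-fold lower, edgeR adjusted p = 1.35e-07). Because the strand setting of the counting is unknown, its reads and those of Kcnq1 may not be separated. Plagl1, a zinc finger factor, went from 18.4 and 18.2 CPM to 39.0 and 35.9 CPM (2.05-fold higher, edgeR adjusted p = 2.45e-08). Sfmbt2, a placental Polycomb-like gene, went from 20.4 and 20.9 CPM to 11.4 and 11.7 CPM (1.79-fold lower). Igf2 was at 1.39 and 0.990 CPM and 0.538 and 0.651 CPM and did not pass (edgeR adjusted p = 0.0628).

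Many sterol synthesis genes were lower. Of 27 tested, 14 fell, none rose and 13 did not pass (median -0.19). Insig1, a sterol sensor of the endoplasmic reticulum, went from 85.6 and 86.1 CPM to 60.7 and 64.9 CPM (1.37-fold lower, edgeR adjusted p = 6.52e-06). Fasn, the fatty acid synthase, fell from 510.0 and 582 CPM to 369 and 386 CPM. The desaturases Scd1 and Scd2, at 219 and 215 CPM against 214 and 210.1 CPM and 1167 and 1161 CPM against 1099 and 1090.2 CPM, did not pass. The SREBP letters TCACNCCAC were found, on either strand, in none of 17 listed genes with a promoter entry and in 134 of 10556 tested genes (1.27%), which says only that those letters are not in the 250-base windows.

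Of 75 oxidative phosphorylation genes, 22 fell, 3 rose and 50 did not pass (median -0.088), and none changed by 2-fold. Atp5a1, the ATP synthase α subunit, fell from 1588 and 1577 CPM to 1306 and 1317 CPM (1.21-fold), and Cox6c, of complex IV, from 185 and 166 CPM to 139 and 135 CPM (1.28-fold). The 22 became 10 without original serum replicate 1, 7 without serum return replicate 1 and 8 without serum return replicate 2, and the 3 higher members became 0 without original serum replicate 2 and 1 without any other single library. Of 33 glycolysis and hypoxia-responsive genes, 11 rose, 9 fell and 13 did not pass (median 0.022). Ddit4, an mTORC1 inhibitor induced by stress, rose from 45.2 and 45.6 CPM to 89.6 and 103 CPM (2.12-fold, edgeR adjusted p = 8.51e-10). Vegfa, the angiogenic factor, rose from 68.5 and 71.2 CPM to 120.3 and 123 CPM (1.74-fold). Ldhb, the heart-type lactate dehydrogenase, fell from 111 and 109 CPM to 81.0 and 80.6 CPM (1.36-fold).

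Of 25 targets of p53 and inhibitors of the cell cycle, 9 rose, 3 fell and 13 did not pass (median 0.090). Cdkn1a, which encodes p21, was at 19.3 and 18.1 CPM and 30.7 and 34.1 CPM (1.73-fold higher, edgeR adjusted p = 8.08e-07). Cdkn2a, which encodes p16 and p19ARF, was at 0.526 and 0.625 CPM and 1.65 and 1.49 CPM (2.73-fold higher). Gdf15, a stress cytokine also induced by ATF4, was at 2.77 and 3.49 CPM and 7.53 and 9.17 CPM (2.66-fold higher). In each, both return libraries were the higher ones. Bax, a classical p53 target, was at 139 and 150.5 CPM and 118 and 139 CPM and did not pass.

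Of 21 SRF and YAP targets, 1 rose, 7 fell and 13 did not pass (median -0.16). Ctgf, the standard YAP target, fell from 29.2 and 31.5 CPM to 19.4 and 17.2 CPM (1.65-fold, edgeR adjusted p = 2.63e-06), and Ajuba, an adaptor of the Hippo pathway, from 197 and 216 CPM to 139 and 152 CPM. Actb, the cytoskeletal β-actin gene and one of the largest losses in CPM, fell from 1279.8 and 1329.8 CPM to 871 and 973 CPM (1.41-fold, edgeR adjusted p = 1.35e-05). Of 23 cadherins and adhesion molecules, 7 rose, 5 fell and 11 did not pass (median 0.15). E-cadherin, Cdh1, rose from 149 and 148 CPM to 208 and 209 CPM (1.40-fold), and Cldn6, a tight junction claudin, fell from 5.98 and 5.16 CPM to 2.62 and 2.37 CPM (2.22-fold). Of 24 matrix genes, 6 rose, 1 fell and 17 did not pass (median 0.18). The member that fell was Lama1, given above.

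Of 19 interferon and nucleic acid sensing genes, 2 rose, 5 fell and 12 did not pass (median -0.024). Aim2, a sensor of cytosolic DNA, was at 5.21 and 3.91 CPM and 16.3 and 14.5 CPM (3.37-fold higher, edgeR adjusted p = 1.15e-08). Ifitm1 and Ifitm3, membrane proteins that restrict viruses, were at 58.4 and 50.2 CPM and 30.6 and 29.4 CPM, and at 39.5 and 37.9 CPM and 25.5 and 24.9 CPM. They were 1.81-fold and 1.53-fold lower. Of 21 immediate-early and heat shock genes, 3 rose, 6 fell and 12 did not pass (median -0.12). The endoplasmic reticulum chaperone gene Hspa5 fell from 695 and 652 CPM to 490.1 and 491 CPM (1.37-fold, edgeR adjusted p = 6.11e-07) and Hspb1 from 223 and 239 CPM to 152 and 163 CPM (1.46-fold). Of 8 aryl hydrocarbon receptor genes, 1 rose, 1 fell and 6 did not pass (median 0.0089), with the quinone reductase Nqo1 at 38.6 and 33.3 CPM and 27.3 and 25.6 CPM (1.36-fold lower). The member that rose, Cyp1a1, had no read in original serum and only 6 and 1 in serum return (edgeR adjusted p = 0.0425). In long 2i it had 872 and 916 reads. Of 6 Y-linked genes, 4 rose and 2 did not pass (median 1.02). Eif2s3y was present in all 4 libraries, at 121 and 105 CPM and 127 and 110.4 CPM, which did not pass. Zfy1 had 1 read in original serum and stood at 0.717 and 0.884 CPM in serum return.

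Other genes with large folds belonged to no list. Trim52, a RING finger protein, went from 1.77 and 1.72 CPM to 8.39 and 7.44 CPM (4.54-fold higher, edgeR adjusted p = 1.13e-07). Hrk, a BH3-only activator of cell death, went from 8.56 and 8.23 CPM to 25.9 and 29.4 CPM (3.28-fold higher). Gpr133, an adhesion G protein-coupled receptor, went from 5.50 and 5.78 CPM to 16.2 and 17.0 CPM (2.94-fold higher). All 3 were higher in both return libraries, which the naming rule required. Rimbp2, a presynaptic scaffold protein, went from 5.02 and 5.42 CPM to 1.43 and 1.12 CPM (4.03-fold lower, edgeR adjusted p = 1.91e-06). Lad1, a filament-anchoring basement membrane protein, went from 24.1 and 23.8 CPM to 7.71 and 7.49 CPM (3.14-fold lower). Ripply1, a repressor of somite segmentation genes, went from 15.7 and 14.6 CPM to 5.45 and 6.09 CPM (2.64-fold lower). The nuclear non-coding RNA Malat1 went from 466 and 561 CPM to 206 and 211 CPM (2.46-fold lower, log2 fold change -1.30, standard error 0.0682, edgeR adjusted p = 1.12e-09). Both return libraries were under the level of both original ones in these genes, as the naming rule also required. Txnip, a glucose-responsive inhibitor of glucose uptake, was among the largest gains in CPM, from 313 and 286 CPM to 531 and 531 CPM (1.77-fold). The nucleolar protein gene Ncl had the largest loss in CPM, from 5752 and 5169.7 CPM to 4699.6 and 4280.2 CPM (1.22-fold).

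The levels in all 5 groups show where the return group stood. Axin2, Aim2, Zfp951, Crxos, Plagl1 and Bmi1 were higher in every 2i library than in every serum library, and their serum return level lay between those of original serum and 2i. Zfp951, a zinc finger gene, for example, was at 3.49 and 2.76 CPM in original serum, 49.2 and 42.7 CPM in long 2i and 11.7 and 10.2 CPM in serum return. Crxos, a homeobox gene of early embryos, was at 2.01 and 2.34 CPM, 31.9 and 32.6 CPM and 7.21 and 6.75 CPM in the same order. In other genes the return level lay outside the range of the other groups. Gata6 was at 0.591 and 0.792 CPM in long 2i and at 0.218 and 0.527 CPM in second 2i, under every serum library. Tfap2c was at 63.1 and 68.5 CPM in long 2i and 66.7 and 68.0 CPM in second 2i, so that its lowest values were those of serum return. Malat1 was lowest in serum return too, with 249.7 and 238 CPM in first 2i and 294 and 280.3 CPM in long 2i. Chac1 was lowest in long 2i, at 5.20 and 4.75 CPM. These genes were picked for display after their values were seen, and the comparisons share libraries, so the placements are descriptions.

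**Figure D5:**
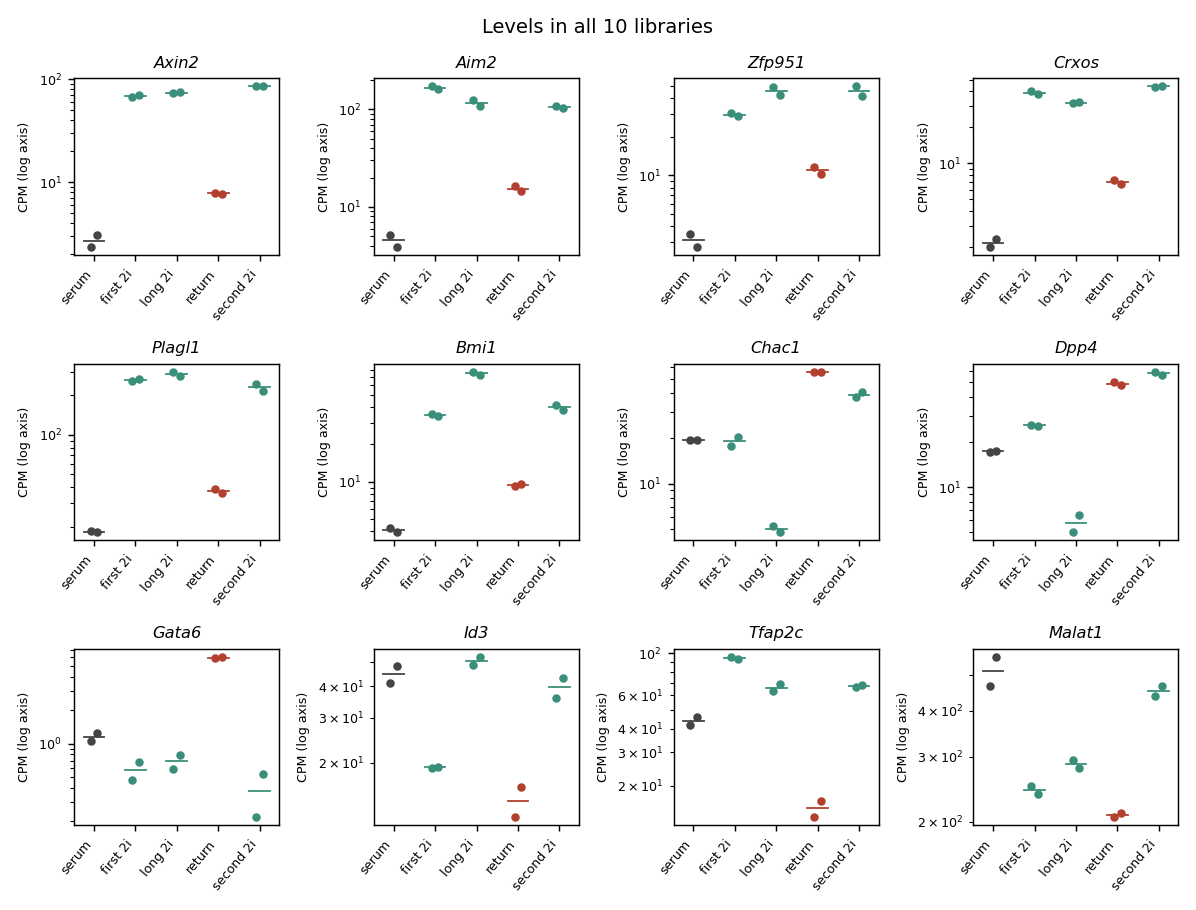
Level of 12 genes in each of the 10 libraries (points, CPM on a log axis) with the group mean (line, n = 2), for serum groups (dark, red) and 2i groups (green). In the first 6 panels serum return lies between original serum and the 2i groups. Gata6 is highest, and Tfap2c and Malat1 are lowest, in serum return.

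A second pair of groups also shared a medium and differed in history. Second 2i cells, which had already been through 2i and 6 passages in serum, were compared with first 2i cells, with no library in common with the serum comparison. In the same fit 5357 genes changed (37.7%), 943 of them at least 2-fold (6.63%), with 447 higher (3.14%) and 496 lower (3.49%). Of the 323 genes higher at least 2-fold in serum return, 60 (18.6%) were also higher at least 2-fold in second 2i, which is 13.4% of the 447 such genes there. Another 30 (9.29%) were lower at least 2-fold. Of the 136 genes lower in serum return, 21 (15.4%) were lower in second 2i as well, which is 4.23% of the 496 there, and 8 (5.88%) were higher. Over all calls, whatever their size, the opposite direction was the more frequent. Of the 2347 genes higher in serum return, 394 (16.8%) were also called higher in second 2i and 695 (29.6%) lower. Of the 2060 lower, 363 (17.6%) were called lower there and 643 (31.2%) higher. Over all 14220 genes tested 42.8% had the same sign in both comparisons. Of these 14220 genes, passing in serum or not, 15.2% were called in second 2i in the direction of their serum difference and 22.5% in the opposite one. The opposite direction was thus the more frequent among all genes tested as well.

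Among the shared genes, Brdt was at 3.04 and 2.29 CPM in first 2i and 14.4 and 14.7 CPM in second 2i. Dpp4, a cell surface peptidase, was at 17.2 and 17.5 CPM in original serum and 50.1 and 47.8 CPM in serum return (2.83-fold higher, edgeR adjusted p = 4.40e-10), and at 26.1 and 25.5 CPM in first 2i and 59.1 and 55.8 CPM in second 2i. In long 2i it stood at 5.02 and 6.55 CPM. Chac1 was at 17.9 and 20.5 CPM in first 2i and 37.8 and 40.7 CPM in second 2i. Cdx1 and the tubulin gene Tuba3a were on the same list, with second 2i log2 fold changes of 2.95 and 2.15. The myosin gene Myh13 was at 6.07 and 5.52 CPM and 12.8 and 14.7 CPM in the serum groups and at 26.4 and 27.5 CPM and 54.7 and 55.9 CPM in first and second 2i. The 4 Zscan4 genes summed to 0.608 and 0.487 CPM in first 2i and to 6.59 and 5.75 CPM in second 2i, with no read in long 2i. Grin1, an NMDA receptor subunit gene and the only gene that met the naming rule for a shared fall, went from 11.8 and 13.0 CPM to 5.42 and 5.12 CPM in serum and from 42.0 and 44.6 CPM to 13.3 and 13.9 CPM in 2i. In all of these genes the later group of each pair differed from the earlier one in the same direction in every library. Apart from the Zscan4 genes, they were chosen for passing in the same direction in both pairs, so this shared direction is not a separate result.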

How the data were processed

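Total RNA was sequenced from the cells of 10 samples, and the files that the authors deposited hold raw counts of reads for each gene symbol. HTSeq 0.5.4p5, TopHat2 2.0.4, CASAVA 1.8.2, DESeq2 and build mm9 are named, per the submitters' processing notes. The annotation, the strand setting and the layout were not given in the sources used here. Each table ended in 5 summary rows, which were left out of library sizes and tests. Gene counts made up 51.2 to 54.8% of all records and multiply aligned reads 33.4 to 36.5%. The latter were not counted for any gene, so multicopy genes are under-counted.

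Tests on these counts used edgeR 4.0.16 under R 4.3.3 (filterByExpr with a minimum count of 10 and total of 15, TMM factors, robust quasi-likelihood fit of all 10 libraries by group, Benjamini-Hochberg adjustment over 14220 genes). With 2 libraries per group, 5 residual degrees of freedom remained. On simulated counts for this comparison, with 13843 genes, 79.1% of 1.5-fold, 95.5% of 2-fold and 98.5% of 4-fold changes were recovered, and 4.71% of calls were false. Only 67, 67 and 66 genes were changed at these folds, all with a mean of at least 1 CPM. The simulated spread depended on the level of a gene alone, with no deviation shared between libraries of different groups. The recovery shares do not cover genes under 1 CPM, and neither rate covers data with more changed genes or a shared deviation. Alternatives were DESeq2 1.42.0, other size factors, no filter, the 4 libraries alone, a replicate block, a test against a 1.5-fold change, Rn45s left out and each library left out.

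The 32 lists and the members compared were chosen with earlier results of these data known. Genes are named by rule. Some have the largest folds or CPM differences among genes that passed with a mean of at least 5 CPM and no overlap between the groups. For these the lack of overlap was a condition of naming and not a result. Others are up to 5 passing and 3 abundant non-passing members of each list, and a fixed set of pluripotency, signalling and imprinted genes. The rest changed at least 2-fold in the same direction in both history comparisons. Atf4, Nodal, Shmt1, Slc38a2 and Tex15 were named beyond the rule after their values were seen, to complete small counts, as were the members marked so in the text. No fold is given for genes with 1 to 3 reads in a group. Some genes of the lists are counted but not reported here by name.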

Additional observations from a re-analysis of the deposited data

Results flagged for a closer look

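Among genes named for their fold, their CPM difference or by the fixed set, 15 passed in both history comparisons but in opposite directions. A contrast of both differences, added after the data were seen, passed for each. Because the genes were chosen for passing in opposite directions in the same fit, this outcome was nearly fixed in advance. It is no separate support and gives only the size of each difference. The values are the log2 change from original serum to serum return minus that from first to second 2i, with edgeR adjusted p-values over all genes tested.

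Higher with the later history in serum and lower in 2i were Taf7l (difference 3.68, standard error 0.416, edgeR adjusted p = 1.19e-06), Aim2 (2.42, adjusted p = 4.27e-10), Cdkn2a (2.37, adjusted p = 5.05e-06), Cdkn1a (1.54, adjusted p = 1.44e-09), Txnip (1.25, adjusted p = 1.57e-10) and Asns (0.84, adjusted p = 5.34e-09). Taf7l, for example, stood at 1.87 and 2.00 CPM in first 2i and 0.327 and 0.580 CPM in second 2i, and Cdkn1a at 219 and 219.8 CPM and 123 and 138 CPM. The fall of Asns in 2i was small (log2 fold change -0.11, edgeR adjusted p = 0.0489).

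Lower with the later history in serum and higher in 2i were Id3 (difference -2.71, standard error 0.166, edgeR adjusted p = 3.53e-09), Malat1 (-2.19, adjusted p = 7.41e-11), Dnmt3b (-1.56, adjusted p = 1.02e-10), Myc (-1.48, adjusted p = 5.84e-08), Id1 (-1.23, adjusted p = 1.84e-05) and Actb (-0.996, adjusted p = 1.60e-07). The same held for Trim28 (-0.68, adjusted p = 4.43e-05), the pyruvate kinase gene Pkm (-0.59, adjusted p = 8.51e-07) and Klf4 (-0.48, adjusted p = 1.39e-05). Dnmt3b stood at 30.1 and 27.2 CPM in first 2i and 58.6 and 58.0 CPM in second 2i. The serum changes of Myc and Pkm were small (log2 fold changes -0.21 and -0.15), and their adjusted p was 0.195 without original serum replicate 2, 0.135 without serum return replicate 1 and 0.0697 without serum return replicate 2 for Myc, and 0.0545 without original serum replicate 1, 0.111 without original serum replicate 2 and 0.131 without serum return replicate 1 for Pkm.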

How the results depend on the processing

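With 2 libraries per group the calls depend on each one. Over the fits that leave out 1 library, genes changed ranged from 2437 to 3333, higher from 1329 to 1798, lower from 1108 to 1589, changed at least 2-fold from 322 to 395 (224 to 282 higher, 85 to 122 lower) and at least 2-fold alike in both history comparisons from 58 to 75, against 81. With DESeq2, 293 genes changed at least 2-fold (211 higher, 82 lower) and 50 in both comparisons. Against a fold of 1.5, 197 genes passed (141 higher, 56 lower, so that 71.6% of calls were higher against 53.3%), 157 of them at least 2-fold (112 higher, 45 lower), and 24 in both comparisons. That test called 12 amino acid members higher (against 27), 4 germline members higher (against 26) and 1 cholesterol member lower (against 14). Other size factors, no filter, the 4 libraries alone and no Rn45s moved each of these total counts by under 1.5 times. The title series, used as a replicate block, raised the genes changed to 6172. Same-series libraries deviated together weakly in all 10 pairs of groups, with correlations of 0.0994 to 0.168 (0.168 for the serum pair), 9 of them over 0.1. There were 12 genes with reads in all 5 libraries of the first series and none in the second, and 1 the other way round. As not all correlations were over 0.1 and no label says what a series shares, the fit without the block was kept. H19 was at the threshold with DESeq2, where its adjusted p was 0.0504. Hoxd8 had 0.0501 there.

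Of the genes named, those whose sign turned did not pass with all libraries. These were Rn45s (-1.02 without serum return replicate 2 to 1.61 without serum return replicate 1), Dnmt3a (-0.013 without serum return replicate 2 to 0.092 without serum return replicate 1), Eif2s3y (-0.034 without serum return replicate 1 to 0.18 without original serum replicate 1), Esrrb (-0.054 without original serum replicate 1 to 0.036 without original serum replicate 2), Meg3 (-0.087 without serum return replicate 1 to 0.048 without original serum replicate 2), Mgp (-7.57 without serum return replicate 1 to 7.88 without original serum replicate 1), Nos3 (-0.24 without original serum replicate 1 to 0.012 without original serum replicate 2), Pou5f1 (-0.061 without serum return replicate 2 to 0.0075 without serum return replicate 1), Smad7 (-0.24 without serum return replicate 2 to 0.11 without serum return replicate 1), Sox7 (-0.0049 without original serum replicate 1 to 0.11 without original serum replicate 2) and Zfp42 (-0.039 without serum return replicate 2 to 0.061 without serum return replicate 1), as log2 fold changes, and Pramel3 (-0.0058 with the replicate block), which had no reads. The cause of these moves was not tested.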
